A study of Danio rerio with 32 samples.

Results

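Transversion mismatch sites are positions at which the RNA of zebrafish embryos carried another base than the DNA of both parents and the change was A>C or its complement T>G, C>A or its complement G>T, or C>G or its complement G>C, each written as the parental base and the base in RNA. They were taken from the lists of all mismatch sites by their change alone, and 6048 different sites of 44007 were transversions of these 6 kinds. The study states that the RNA reads were unstranded and names a TruSeq RNA preparation for the offspring libraries. The labels name a stranded kit for the libraries, so that whether strand was kept is not settled here. Following the study, a change and its complement were not told apart, and the 6 changes form 3 strand-paired classes, A>C with T>G (2632 sites), C>A with G>T (2112 sites) and C>G with G>C (1304 sites). The lists came from pooled whole embryos of 1 uninjected wild-type (ABTL) mating pair at the 16-cell stage, at 3.5 hpf and at 5.3 hpf (hpf, hours post fertilization), with 1 RNA library for each stage. RNA was depleted of ribosomal RNA and not selected by its poly(A) tail, and genomic DNA came from a tail fin clip of each parent. The authors listed a position where both parents were homozygous and a single other base was found in at least 20% of the RNA reads. The lists give the share of RNA reads with the changed base, here called the frequency, and no coverage. The depth behind a frequency is thus unknown, and no interval is given for a single site.

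Adar enzymes deaminate adenosine in double-stranded RNA to inosine, which is read as guanosine, so that editing by them appears as an A>G mismatch or, from the opposite strand, as T>C. Deamination of cytidine to uridine appears as C>T or G>A. Both reactions replace a purine by a purine or a pyrimidine by a pyrimidine, and neither turns a purine into a pyrimidine or the reverse, which is what the changes described here do. A>T and T>A are such changes too but are not among them. The sites with A>G or T>C (30154 different sites) and those with C>T, G>A, A>T or T>A (7805 different sites, here called the other 4 changes) serve as references, counted in the same lists. The other 4 changes thus mix A>T and T>A with C>T and G>A, and they were not split.

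Some transversions stood within a few bases of each other, and the letters of some of the densest stretches are given here. Over the joined lists 62.7% of the sites had no other transversion within 10 bp, so these stretches do not show the usual case. The stretches are among the 9 of at most 30 bp that held at least 6 different transversion sites, and these 5 were picked after their values were seen because their letters differ in kind. Capitals mark the transversion sites, a lower-case letter other than n marks a site with another listed change, and n marks a position with no listed mismatch, whose base the lists do not give. Positions are on GRCz10, count from 1 and run along the forward strand, and the RNA line joins the changed bases of the 3 lists.
chr14:33488682-33488706 parents: TnnnGTnnTGnnnTGnnnTGnnnTG
chr14:33488682-33488706 RNA: GnnnTGnnGTnnnGTnnnGCnnnGT
chr11:44581478-44581494 parents: CCnntnACnnnnnAnTT
chr11:44581478-44581494 RNA: GAnnanCGnnnnnCnGG
chr2:53947647-53947657 parents: CAnCAnCAnnA
chr2:53947647-53947657 RNA: ACnACnACnnC
chr19:28222775-28222785 parents: AnCnAnCnAnC
chr19:28222775-28222785 RNA: CnAnCnAnCnA
chr18:19147838-19147843 parents: TGGTTG
chr18:19147838-19147843 RNA: GTTGGT

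On chromosome 14 the changed positions formed T and G pairs at steps of 5 bp over part of the stretch, and in most of these pairs the RNA carried the 2 bases in the opposite order. On chromosome 2 the joined lists gave the same exchange of A and C at steps of 3 bp. Only the pair at 53947650 and 53947651 had both changes in 1 list, each at 0.6 at 5.3 hpf, while the other CA pairs joined sites of different lists. On chromosome 19 A and C alternated at every other position. The 3.5 hpf list held all 6 of these sites, at 0.214 to 1 with a median of 0.218, and the 16-cell and 5.3 hpf lists held 2 each. On chromosome 18 each of 6 successive positions was listed, with 4 of them in the 16-cell list, 5 at 3.5 hpf and all 6 at 5.3 hpf. The stretch on chromosome 11 showed no such order of letters, and its 7 transversion sites had a frequency of 1 at every stage.

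The 16-cell list held 2610 transversion sites of 25236, the 3.5 hpf list 2707 of 24976 and the 5.3 hpf list 3688 of 25852. Their share was 10.3% at the 16-cell stage (95% Wilson interval 9.97% to 10.7%), 10.8% at 3.5 hpf (10.5% to 11.2%) and 14.3% at 5.3 hpf (13.8% to 14.7%). The share at 5.3 hpf was higher by 3.92 percentage points than at the 16-cell stage (95% interval 3.36 to 4.49, 2-sided Fisher's exact test, adjusted p = 8e-41) and by 3.43 points than at 3.5 hpf (2.85 to 4, adjusted p = 9.9e-31). Between 3.5 hpf and the 16-cell stage the difference was 0.50 points (-0.04 to 1.03, exact test, adjusted p = 0.12). Under the proximity filter that the authors used on other samples, which keeps a site with at least 4 sites of its own change among 9 neighbouring ones, 34, 35 and 24 transversions were left at the 3 stages, and the differences of 5.3 hpf from the 16-cell stage and from 3.5 hpf turned to -0.0281 and -0.0374 points (exact test, adjusted p = 0.72 and 0.65). The transversions left were 0.189%, 0.198% and 0.161% of the sites kept. Such a filter removes nearly all transversions, so these differences could only be small and do not bear on the higher share at 5.3 hpf. All p-values given here were adjusted by the Benjamini-Hochberg method over 47 tests, of which 24 passed 0.05. They compare the listed sites of single libraries, not embryos, and since neighbouring sites share reads and the stages share sites, the tests overstate the precision.

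Among mismatches other than A>G and T>C, their share was lowest at 5.3 hpf. Of these, transversions made up 45% at the 16-cell stage (43.7% to 46.3%), 46.1% at 3.5 hpf (44.9% to 47.4%) and 42.4% at 5.3 hpf (41.4% to 43.4%). The share at 5.3 hpf was lower by 2.64 points than at the 16-cell stage (interval -4.29 to -0.99, Fisher's exact test, adjusted p = 0.0037) and by 3.75 points than at 3.5 hpf (-5.39 to -2.10, adjusted p = 2.8e-05). With only sites at a frequency of at least 0.3, the difference from the 16-cell stage was -2.33 points and no longer passed (exact test, adjusted p = 0.061). The higher share of transversions in the whole 5.3 hpf list stood beside fewer A>G and T>C sites, 17151 against 19439 at the 16-cell stage, and more of the other 4 changes, 5013 against 3187.

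**Figure D1:**
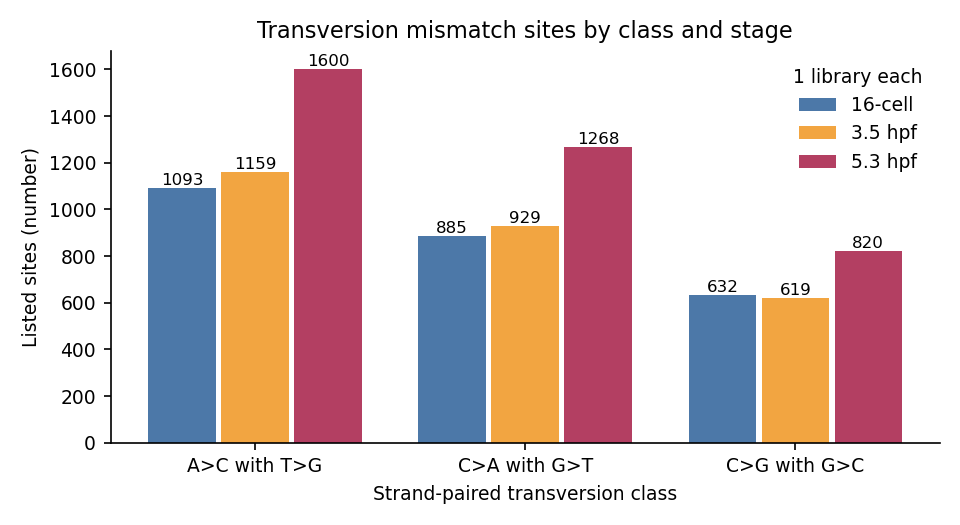
Number of listed transversion sites (y axis) in each strand-paired class (x axis) at the 16-cell stage, 3.5 hpf and 5.3 hpf, with 1 library for each bar and no error bars. A>C with T>G led at every stage, C>G with G>C was the rarest, and all 3 classes were most numerous at 5.3 hpf.

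A>C with T>G was the most frequent class at each stage, with 1093, 1159 and 1600 sites at the 16-cell stage, 3.5 hpf and 5.3 hpf. C>A with G>T followed with 885, 929 and 1268 sites, and C>G with G>C had 632, 619 and 820 sites. None of the 9 comparisons of a class's share among transversions between stages passed the test, and the widest gap was that of C>G with G>C, which made up 22.2% at 5.3 hpf and 24.2% at the 16-cell stage (difference -1.98 points, interval -4.11 to 0.13, Fisher's exact test, adjusted p = 0.12). Within a class both strands were listed about equally often. A>C was 52.0% of its class at the 16-cell stage and 49.8% at 5.3 hpf, with 50% inside the Wilson interval of every class and stage.

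Most transversion sites were seen at a single stage. Of the 6048 sites, 977 were listed at every stage, or 16.2% (15.2% to 17.1%), and 2346 at 5.3 hpf alone, or 38.8% (37.6% to 40.0%). Listing at 5.3 hpf alone held for 43.2% of the other 4 changes and 19.3% of A>G or T>C sites. The 16-cell stage alone had 846 sites (14.0%) and 3.5 hpf alone 876 (14.5%). These shares were 13.5% and 12.7% for the other 4 changes and 14.0% and 12.7% for A>G or T>C sites. Another 638 (10.5%) were shared by the 16-cell stage and 3.5 hpf only and 216 (3.57%) by 3.5 hpf and 5.3 hpf only. A further 149 (2.46%) were shared by the 16-cell stage and 5.3 hpf only. In the same order these shares were 9.60%, 3.28% and 2.88% for the other 4 changes and 16.5%, 3.62% and 3.38% for A>G or T>C sites. The 2 earlier lists thus had the most in common, for transversions as for both references.

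Transversions were listed at every stage less often than A>G or T>C sites, of which 30.6% were (difference -14.5 points, interval -15.5 to -13.4, Fisher's exact test, adjusted p = 5.6e-125). With 1 site counted for each chain of neighbouring sites the shares were 13.7% and 18.6%, and the difference was -4.87 points (exact test, adjusted p = 7.1e-11). Against the other 4 changes, at 14.9%, the difference was 1.25 points (0.04 to 2.48, exact test, adjusted p = 0.079), and with only sites at a frequency of at least 0.3 it was 2.84 points and passed (adjusted p = 0.0035). Of the classes, C>G with G>C had 19.5% of its sites at every stage, against 15.9% for A>C with T>G (difference 3.60 points, 1.08 to 6.21, exact test, adjusted p = 0.011) and 14.4% for C>A with G>T (difference 5.04 points, 2.45 to 7.70, adjusted p = 0.00036). The first of these 2 differences did not pass when 1 site was counted for each chain of neighbouring sites (2.97 points, exact test, adjusted p = 0.082) or when sites needed a frequency of at least 0.3 (2.71 points, adjusted p = 0.25). Between C>A with G>T and A>C with T>G the difference was -1.44 points (-3.48 to 0.62, exact test, adjusted p = 0.28), which became -4.72 points at a frequency of at least 0.3 (adjusted p = 0.0058).

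Frequencies of transversions piled up at both ends of the range. The median was 0.379 at the 16-cell stage (95% interval 0.364 to 0.4), 0.351 at 3.5 hpf (0.333 to 0.364) and 0.333 at 5.3 hpf (0.316 to 0.333), close to the medians of A>G and T>C sites, which were 0.375, 0.375 and 0.357 in the same order of stages. Yet 25.9% of transversions had a frequency of at least 0.9 at the 16-cell stage, against 7.41% of A>G or T>C sites (difference 18.5 points, 16.8 to 20.2, Fisher's exact test, adjusted p = 9.1e-151). At 3.5 hpf it was 23.3% of transversions against 7.16% of A>G or T>C sites (16.1 points, exact test, adjusted p = 1.5e-125), and at 5.3 hpf 17.1% against 6.34% (10.8 points, adjusted p = 8.5e-86). Among sites with no listed mismatch within 100 bp the differences were smaller, at 9.25, 6.33 and 3.69 points at the 16-cell stage, 3.5 hpf and 5.3 hpf, and still passed (exact test, adjusted p = 9.6e-11, 4.3e-06 and 0.00031). The middle of the range was thinner in turn. Only 13.3%, 12.7% and 14.1% of transversions at the 16-cell stage, 3.5 hpf and 5.3 hpf had a frequency of 0.4 to 0.6, against 22.1%, 22.4% and 21.7% of A>G or T>C sites. This was not particular to the 6 changes described here, since the other 4 changes, which include A>T and T>A, had 14.6%, 13.9% and 14.0% there at the same stages. At the low end, 38.0%, 40.3% and 42.1% of transversions were under 0.3 at these stages, where the lists begin at 0.2. It was 39.1%, 40.6% and 43.8% of the other 4 changes and 33.7%, 33.9% and 37.0% of A>G or T>C sites. Many sites at the low end were thus common to all kinds.

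Many of the high sites showed the changed base in every read. At the 16-cell stage 520 transversion sites were listed at exactly 1, or 19.9% (18.4% to 21.5%), with 483 (17.8%) at 3.5 hpf and 424 (11.5%) at 5.3 hpf, against 3.44%, 3.31% and 3.07% of A>G or T>C sites. The other 4 changes were nearer to transversions, with 15.2%, 13.6% and 9.60% of their sites at exactly 1 at these stages. Among the 977 transversions listed at every stage, 139 were at 1 each time, or 14.2% (12.2% to 16.6%), against 7.05% of the 1163 such sites of the other 4 changes (5.72% to 8.67%) and 1.19% of the 9234 such A>G or T>C sites (0.989% to 1.43%). The share of transversions with a frequency of at least 0.9 was also above that of the other 4 changes at each stage, by 4.88 points at the 16-cell stage (exact test, adjusted p = 4.3e-05), 2.99 at 3.5 hpf (adjusted p = 0.011) and 2.69 at 5.3 hpf (adjusted p = 0.0018). None of these 3 differences passed among sites with no listed mismatch within 100 bp, where they were 3.28, 0.69 and 2.14 points, and that at 3.5 hpf did not pass at a threshold of 0.8 or with 1 site for each chain either.

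C>G with G>C stood out as the class of high frequencies. Its median was 0.538 at the 16-cell stage (0.462 to 0.6), 0.474 at 3.5 hpf (0.417 to 0.6) and 0.369 at 5.3 hpf (0.353 to 0.409). A>C with T>G had the lowest medians, 0.346, 0.326 and 0.308 at the 3 stages, and C>A with G>T had 0.364, 0.333 and 0.333. Of the C>G and G>C sites 36.7% reached 0.9 at the 16-cell stage, against 21.4% of A>C and T>G sites (15.3 points, 10.8 to 19.8, Fisher's exact test, adjusted p = 4.8e-11) and 23.7% of C>A and G>T sites (13.0 points, 8.30 to 17.7, adjusted p = 1.8e-07). At 3.5 hpf the same shares were 35.1%, against 19.1% (exact test, adjusted p = 1.1e-12) and 20.7% (adjusted p = 2.1e-09). At 5.3 hpf they were 22.6%, against 15.4% (exact test, adjusted p = 5.6e-05) and 15.8% (adjusted p = 0.0003), so that the gap was about 7 points and narrower than before; the narrowing itself was not tested. The difference from C>A with G>T at 5.3 hpf did not pass among sites with no neighbour (4.51 points, exact test, adjusted p = 0.23) or with 1 site for each chain (4.28 points, adjusted p = 0.077). C>A with G>T and A>C with T>G did not differ past the test at any stage, with differences of 2.32 points (-1.37 to 6.05), 1.60 points (-1.83 to 5.07) and 0.40 points (-2.26 to 3.10), although among sites with no neighbour the difference at 3.5 hpf was 6.65 points and passed (exact test, adjusted p = 0.016).

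**Figure D2:**
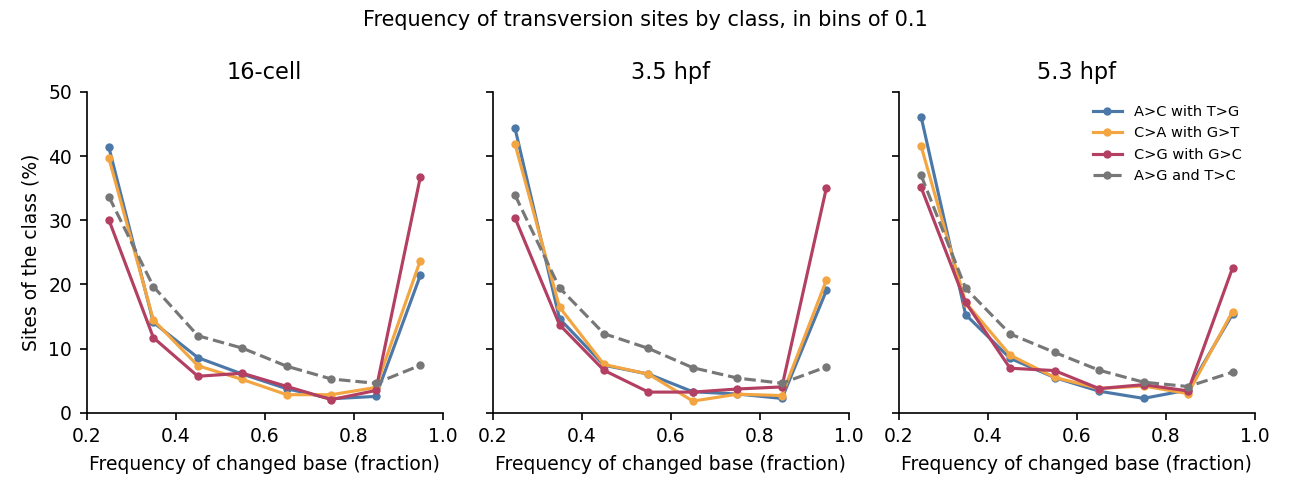
Share of the sites of a class (y axis, percent) in bins of 0.1 of the frequency of the changed base (x axis), for the 3 transversion classes and, dashed, for A>G and T>C sites, with 1 panel for each stage. All 3 classes have a second peak in the bin of 0.9 to 1, where C>G with G>C reached 36.7% at the 16-cell stage and A>G and T>C sites 7.41%. The other 4 changes, which are not drawn, had 21.0% in that bin at the 16-cell stage.

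Where transversions had a neighbour, it mostly lay within a few bases. At the 16-cell stage 29.8% of them had another listed mismatch at the next base (28.1% to 31.6%) and 66.5% had one within 10 bp (64.6% to 68.3%), but widening the distance to 100 bp raised this only to 74.1%. The shares within 10 bp and 100 bp were 65.8% and 73.2% at 3.5 hpf and 61.1% and 71.6% at 5.3 hpf. A>G and T>C sites had about the same share at the next base, 32.1% at the 16-cell stage, but reached 74.8% within 10 bp and 94.1% within 100 bp. The difference at 100 bp was -20.0 points at the 16-cell stage (-21.7 to -18.3, Fisher's exact test, adjusted p = 6.4e-192), -21.0 points at 3.5 hpf (adjusted p = 1.9e-212) and -19.0 points at 5.3 hpf (adjusted p = 1.5e-178).

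Against the other 4 changes the differences were small. Within 100 bp, 73.5% of them had a listed mismatch at the 16-cell stage (difference of transversions 0.59 points, -1.69 to 2.85, exact test, adjusted p = 0.72) and 73.0% at 3.5 hpf (0.27 points, -2.01 to 2.54, adjusted p = 0.85). At 5.3 hpf transversions had a neighbour more often, 71.6% against 68.4% (3.17 points, 1.22 to 5.11, Fisher's exact test, adjusted p = 0.0032). The classes ran from 68.5% for A>C with T>G over 76.8% for C>A with G>T to 80.1% for C>G with G>C at the 16-cell stage.

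**Figure D3:**
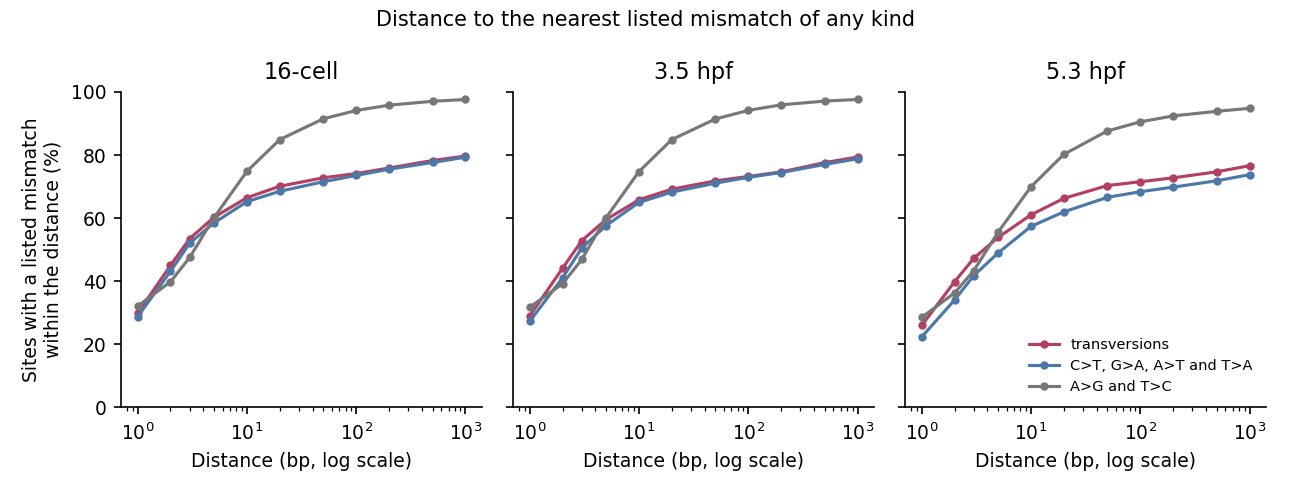
Share of sites with another listed mismatch of any kind within a distance (y axis, percent) against that distance (x axis, bp, log scale), for transversions, the other 4 changes and A>G with T>C, with 1 panel for each stage. The transversion curve flattens beyond 10 bp, at 66.5% at the 16-cell stage, while that of A>G and T>C goes on to 94.1% at 100 bp.

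The neighbours were mostly not A>G. At the 16-cell stage the 2610 transversions had 7354 listed neighbours within 100 bp, counted once for each transversion, of which 35.0% were transversions, 31.9% were of the other 4 changes and 33% were A>G or T>C, although these 3 groups made up 10.3%, 12.6% and 77.0% of the list. At 5.3 hpf the shares among 8992 neighbours were 35.3%, 38.2% and 26.5%. Another transversion lay within 100 bp of 51.3% of transversions at the 16-cell stage (49.4% to 53.3%), of 51.6% at 3.5 hpf and of 47.8% at 5.3 hpf, against 42.0%, 42.6% and 40.0% of the other 4 changes and 7.97%, 7.45% and 8.81% of A>G or T>C sites. An A>G or T>C site lay within 100 bp of 38.2%, 36.1% and 34.5% of transversions at the 16-cell stage, 3.5 hpf and 5.3 hpf. For the other 4 changes this share was 41.0% at the 16-cell stage (difference of transversions -2.84 points, Fisher's exact test, adjusted p = 0.054), 40.2% at 3.5 hpf (-4.15 points, adjusted p = 0.0026) and 35.3% at 5.3 hpf (-0.82 points, adjusted p = 0.54).

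Sites with a neighbour had higher frequencies than those without, among transversions and in both references. At the 16-cell stage the 1935 transversions with a listed mismatch within 100 bp had a median frequency of 0.450 (0.417 to 0.476), against 0.260 (0.25 to 0.273) for the 675 with none. The same medians were 0.417 against 0.25 at 3.5 hpf and 0.387 against 0.242 at 5.3 hpf, the values without a neighbour being near the lowest frequency that the lists admit. Listing at another stage followed the same division. It held for 73.6% (71.6% to 75.6%) of 16-cell transversions with a neighbour, against 50.2% (46.5% to 54.0%) of those with none, for 75.0% against 47.6% at 3.5 hpf, and for 41.0% against 24.9% at 5.3 hpf. The division was not particular to transversions. At the 16-cell stage the other 4 changes had medians of 0.4 with a neighbour and 0.267 with none, and 73.9% and 47.9% of them were listed at another stage. A>G and T>C sites had medians of 0.385 and 0.286, with 79.2% and 63.0% listed again. A>C with T>G showed the lowest level among sites with no neighbour, with a frequency of at least 0.9 in 7.56% of them at the 16-cell stage (5.21% to 10.8%), against 32.5% (25% to 41.1%) for C>G with G>C. These values are descriptions, and a site under a frequency of 0.2 at a stage is not in that list.

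Neighbouring transversions had nearly equal frequencies. For 547 pairs of successive listed sites within 100 bp that were both transversions at the 16-cell stage, the median difference of frequency was 0.0226 (0.0191 to 0.0275), against 0.154 (0.15 to 0.158) for 14848 pairs of A>G or T>C sites. It was 0.0254 in 573 transversion pairs against 0.15 at 3.5 hpf, and 0.0238 in 714 transversion pairs against 0.141 at 5.3 hpf. At the 16-cell stage 69.5% of the transversion pairs agreed within 0.05, and 20.9% of the A>G or T>C pairs. A pair of 1 transversion and 1 site of any other kind was also close, with a median difference of 0.0271 at the 16-cell stage, and so was a pair within the other 4 changes, with 0.0293. With both frequencies under 0.9 the median difference of transversion pairs was 0.0341, 0.0397 and 0.0339 at the 16-cell stage, 3.5 hpf and 5.3 hpf, against 0.139, 0.135 and 0.131 for A>G or T>C pairs. Pairs within a few bases lie on the same reads, and no p is given.

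**Figure D4:**
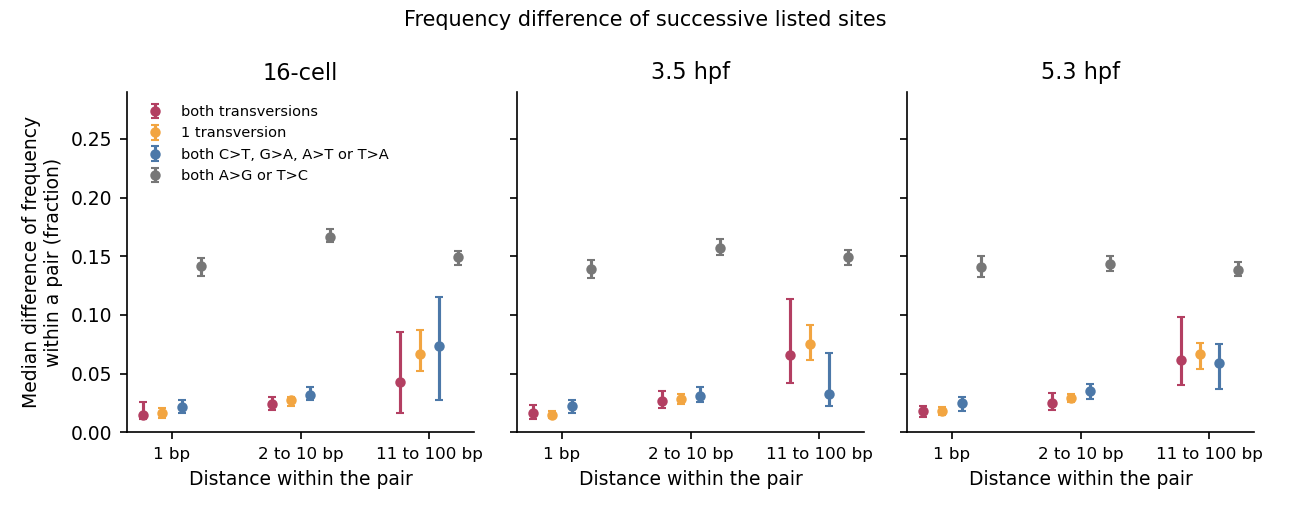
Median difference of frequency within pairs of successive listed sites (y axis, fraction) by the distance within the pair (x axis), for 4 kinds of pair and 3 stages, with 95% order-statistic intervals as bars. Pairs with a transversion lie at 0.0147 to 0.0183 at 1 bp and below the A>G and T>C pairs at every distance and stage, which lie between 0.138 and 0.167.

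At another stage both sites of such a pair were mostly listed or both absent, as they were for pairs of the other 4 changes and of A>G or T>C. Of 486 pairs of transversions within 10 bp in the 16-cell list, 54, or 11.1%, had only 1 of their sites listed at 3.5 hpf, against 11.1% of 604 pairs of the other 4 changes and 20.0% of 9665 pairs of A>G or T>C sites. Of the same transversion pairs, both sites were listed again at 5.3 hpf in 230 and neither in 224, and 32 pairs, or 6.58%, were split, against 12.7% of the pairs of the other 4 changes and 19.2% of the A>G or T>C pairs. From the 5.3 hpf list, 4.28% of 608 transversion pairs were split at the 16-cell stage, against 5.14% of the pairs of the other 4 changes and 16.9% of the A>G or T>C pairs. Neither site was listed there in 57.9%, 61.9% and 22.1% of these pairs in the same order. A pair with neither site listed cannot be split, so the split shares also depend on how often sites were listed again. These shares were not tested.

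At the closest distance the letters were often exchanged. The 16-cell list held 190 pairs of transversions on successive bases, and in 95 of them, or 50.0% (43.0% to 57.0%), the RNA carried the 2 parental bases in the opposite order. It was 97 of 203 pairs at 3.5 hpf (47.8%, 41.0% to 54.6%) and 94 of 231 at 5.3 hpf (40.7%, 34.6% to 47.1%). The lists give a frequency for each site apart, so whether both changes of a pair lay on the same RNA molecules was not tested. Such exchanges are 6 of the 36 ordered combinations of the 6 changes. The changes were not equally frequent, so 6 of 36 counts kinds and is not an expected share. Parental TG with changes giving GT, or CA giving AC on the other strand, made up 50 of the 16-cell pairs. Parental GT with changes giving TG, or AC giving CA, made up 41, and an exchange of C and G made up 4. Of the 3235 A>G or T>C pairs on successive bases 99.2% had the same change at both bases. A>G and T>C cannot form an exchange, so these pairs are no reference for the shares above. Exchanges of A and T among the other 4 changes were not counted.

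In chains of transversions with gaps of at most 10 bp over the joined lists, 3791 sites, or 62.7%, stood alone, and 1302 were in chains of 2. Chains of 3 to 4 held 815 sites and chains of 5 or more held 140, in 25 chains. Counted in bins of 1 kb, 4093 bins held at least 1 transversion site, 61 held at least 5 and 6 held at least 8. The 61 bins held 361 sites, or 5.97% of all. Such chains and bins were not counted for the references, so these counts are not shown to be particular to transversions.

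The bin with the most transversions by rank, chr8:160001-161000, held 11 sites between positions 160504 and 160630, no A>G or T>C site and 1 site with another change. Its frequencies ranged from 0.255 to 0.454 over 9 sites at the 16-cell stage, from 0.263 to 0.753 over 11 sites at 3.5 hpf and from 0.207 to 0.735 over 9 sites at 5.3 hpf. Sites some bases apart differed within a stage, with 0.263 at 160506, 0.469 at 160513 and 0.661 at 160525 at 3.5 hpf. The adjacent C>G, A>C and A>C sites at 160530 to 160532 had 0.448, 0.454 and 0.426 at the 16-cell stage, 0.734, 0.738 and 0.753 at 3.5 hpf and 0.545, 0.634 and 0.595 at 5.3 hpf.

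The bin chr14:33488001-33489000 also held 11 sites, all in the printed stretch of 25 bp, and no site with another change. It lies in the listed 3′-UTR window of ocrl, an inositol polyphosphate 5-phosphatase of membrane traffic. Frequencies lay between 0.304 and 0.807 at the 16-cell stage and between 0.278 and 0.667 over 9 sites at 3.5 hpf, and none of the 11 was listed at 5.3 hpf. The T>G and G>T sites at the end of the stretch had 0.807 and 0.774 at the 16-cell stage and 0.667 and 0.6 at 3.5 hpf. Each of the 9 sites listed at both stages was lower at 3.5 hpf.

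Of the 10 transversions in chr22:1164001-1165000, 5 lay within 10 bp of each other and were listed at 5.3 hpf alone, at frequencies of 0.2 to 0.273. In chr3:60399001-60400000 the 8 sites ranged from 0.2 to 0.455 and no site was listed at every stage, although 1 was listed at both 3.5 hpf and 5.3 hpf. The 8 sites of chr5:826001-827000 were of the opposite kind. They had medians of 0.925, 0.993 and 0.997 at the 16-cell stage, 3.5 hpf and 5.3 hpf, and 6 of them were listed at every stage. A further bin with 8 sites, chr17:50363001-50364000, was held only by the 5.3 hpf list, with frequencies of 0.2 to 0.8. In these bins, taken in the order given, the other 4 changes had 5, 9, 8 and 8 sites. A>G or T>C sites numbered 5, 3, 5 and 1 in the same order. Transversions were thus not the only changes gathered there.

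**Figure D5:**
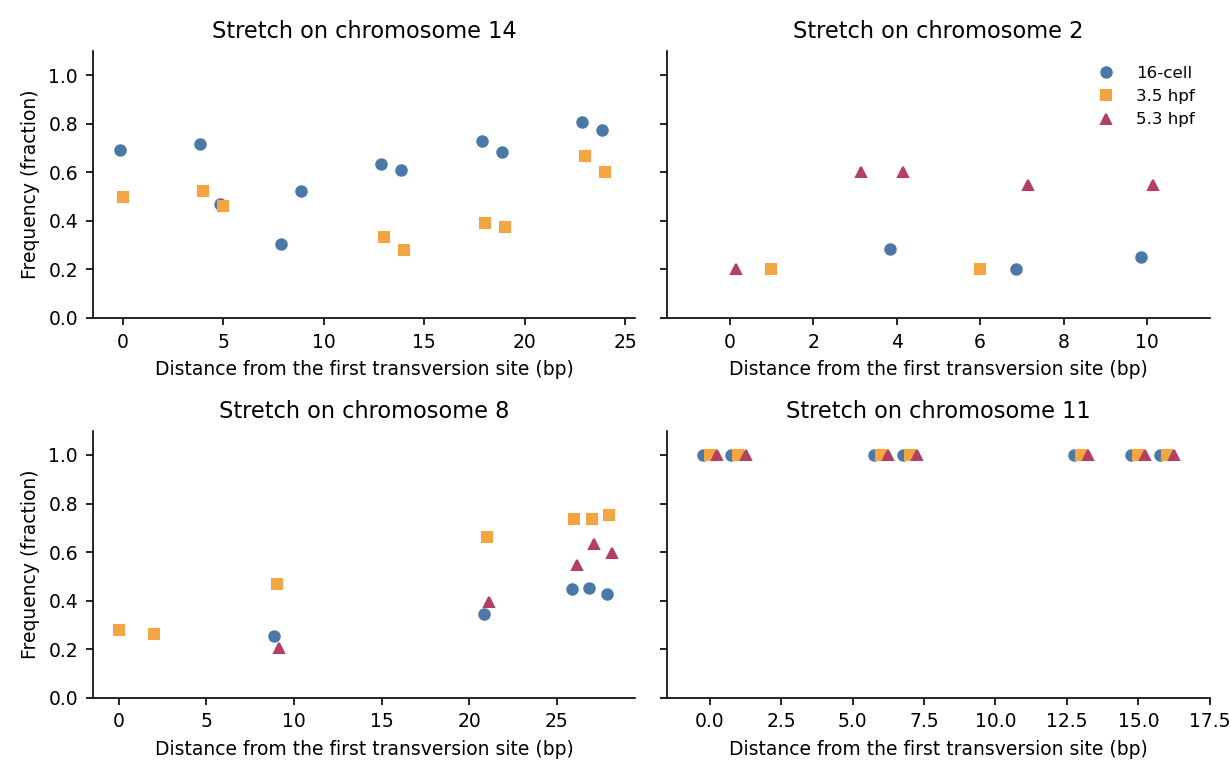
Frequency of each transversion site (y axis, fraction) against its distance from the first transversion site (x axis, bp) in the 4 stretches of at most 30 bp with the most transversions, with colours and marker shapes for the 3 stages and points of a stage shifted slightly sideways. On chromosome 11 all 7 sites are at 1 at each stage, while on chromosome 14 they lie between 0.304 and 0.807 at the 16-cell stage and are absent from the 5.3 hpf list.

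Sites listed at more than 1 stage kept their frequency closely. The 16-cell and 3.5 hpf lists shared 1615 transversions, which is 59.7% of those at 3.5 hpf and 61.9% of those at the 16-cell stage, with a median absolute difference of 0.0370 and a Pearson r of 0.948 across sites. The 5.3 hpf list shared 1126 with the 16-cell stage (median difference 0.0502, r = 0.90) and 1193 with 3.5 hpf (0.0539, r = 0.902). For the other 4 changes the same median differences were 0.0459, 0.0617 and 0.0588, with r of 0.939, 0.881 and 0.883. For A>G and T>C sites they were 0.0604, 0.0710 and 0.0714, with r of 0.884, 0.836 and 0.842. Sites at exactly 1 in both lists add to the agreement and were not left out. Sites of 1 library share their reads and are not replicates, so that r is a description.

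A change of more than 0.2 was about as common in transversions as in the lists as a whole. At 3.5 hpf, 58 of 1615 transversions (3.59%) were higher than at the 16-cell stage, against 3.97% of all shared sites, and 49 (3.03%) were lower, against 3.43%. At 5.3 hpf, 46 of 1126 (4.09%) were higher than at the 16-cell stage, against 3.78% of all shared sites, and 86 (7.64%) were lower, against 8.15%. Between 5.3 hpf and 3.5 hpf 45 of 1193 (3.77%) were higher, against 3.45%, and 99 (8.30%) were lower, against 7.95%. In each comparison with 5.3 hpf more transversions went down than up, as in the background.

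The largest rises among transversions listed at every stage reached intermediate frequencies. The G>T site chr7:598838 had 0.233, 0.333 and 0.706 at the 16-cell stage, 3.5 hpf and 5.3 hpf. The C>A site chr5:1377238, in the listed window of golga2, which encodes a matrix protein of the Golgi, had 0.237, 0.406 and 0.7, and the C>A site chr10:39286359, in that of ei24, had 0.333, 0.421 and 0.765. In all 3 the value at 3.5 hpf lay between the others. The largest falls began at 1. The G>C site chr11:11355289 had 1, 0.739 and 0.268, the T>G site chr14:24551351 had 1, 1 and 0.308, and the C>A site chr7:71781127 had 1, 1 and 0.327.

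Over the chromosomes the share of transversions among all listed sites was highest on chromosome 22, with 366 of 1769 sites (20.7%, 18.9% to 22.6%), and lowest on chromosome 20, with 199 of 2046 (9.73%, 8.52% to 11.1%). Among mismatches other than A>G and T>C the 2 chromosomes were closer, at 45.7% (42.3% to 49.2%) and 42.2% (37.8% to 46.7%). On chromosome 4, with 337 of 1678 sites (20.1%), 229 of the transversions were listed at 5.3 hpf alone, or 68.0% (62.8% to 72.7%), a higher share than on any other chromosome and against 47.8% on chromosome 22 and 29.1% on chromosome 20. Among mismatches other than A>G and T>C, transversions made up 42.7% there (39.3% to 46.2%), against 43.7% over all listed sites. How many sites with other changes on chromosome 4 were listed at 5.3 hpf alone was not counted, so the 68.0% is not shown to be particular to transversions. Chromosome 4 was named after its values were seen. Scaffolds not placed on a chromosome held 198 transversions of 902 sites (22.0%, 19.4% to 24.8%).

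Few transversions lay in the 3′-UTR windows that the authors listed for A>G sites. At the 16-cell stage it was 245 of 2610 (9.39%, 8.33% to 10.6%), against 10.3% of the other 4 changes (difference -0.94 points, -2.47 to 0.62, Fisher's exact test, adjusted p = 0.35). At 3.5 hpf it was 9.24% against 10.4% (-1.14 points, -2.66 to 0.39, exact test, adjusted p = 0.24), and at 5.3 hpf 6.05% against 5.49% (0.56 points, -0.42 to 1.57, adjusted p = 0.37). The windows had been chosen for A>G and T>C sites, of which 44.9% lay there at the 16-cell stage. C>G with G>C was least often in the windows at each stage, with 6.01%, 5.98% and 3.41% at the 16-cell stage, 3.5 hpf and 5.3 hpf, against 10.1%, 10.3% and 6.75% for A>C with T>G, which was not tested.

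Over the stages 460 transversions fell into 227 of the 765 windows. There was 1 transversion in 112 windows and at least 5 in 13. After ocrl, the window of rcor3, a corepressor of the REST factor, held most, with 10 sites, 8 of them at the 16-cell stage between 0.231 and 0.767, 5 at 3.5 hpf between 0.235 and 0.929 and 2 at 5.3 hpf at 0.261 and 0.238. The windows of maf1, a repressor of transcription by RNA polymerase III, sdc2, the heparan sulfate proteoglycan syndecan, and vent, a homeobox factor of ventral fate, held 7 each. In the windows of ocrl, rcor3, maf1, sdc2 and vent the other 4 changes had 2, 7, 1, 7 and 10 sites. A>G or T>C sites numbered 20, 19, 4, 3 and 5 in the same order. In sdc2 and vent transversions were thus not more numerous than the other 4 changes.

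These windows differed in kind. In maf1, T>G sites stood at 3 successive positions from chr11:23816498, with frequencies of 1, 1 and 0.383 at the 16-cell stage, 1, 0.971 and 0.387 at 3.5 hpf and 1, 0.980 and 0.354 at 5.3 hpf, so that the third position was the lowest in each list. In vent all 7 sites were listed at 3.5 hpf, between 0.2 and 0.8, 1 of them also at 5.3 hpf and none at the 16-cell stage. In sdc2 no site was listed at every stage, and 3 sites between chr19:47597323 and 47597328 had 0.316, 0.375 and 0.267 at the 16-cell stage and 0.333, 0.4 and 0.4 at 5.3 hpf, with none listed at 3.5 hpf.

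Of the 10 genes that the study names for patterning and signalling and that have a listed window, 4 had a transversion there. Over all listed windows it was 227 of 765. The window of extl3, a glycosyltransferase of heparan sulfate synthesis, held 4, all listed at 3.5 hpf at 0.213 to 0.350 and 1 also at 5.3 hpf at 0.255. That of fgfr1a, a receptor of fibroblast growth factors, held 1 C>A site (chr8:51447569), at 0.276 at 3.5 hpf and 0.394 at 5.3 hpf, beside 80 A>G or T>C sites. In furina, a proprotein convertase, the T>G site chr7:13959917 had 0.375 at the 16-cell stage and 0.278 at 3.5 hpf, and in ezrb, an ezrin that links membrane and actin, the A>C site chr20:13671038 had 0.444 and 0.273 at these stages. In the windows of fzd3b, fzd5, fzd7b and fzd8b, which encode Frizzled receptors of Wnt signals, of tcf7l1b, a repressor of Wnt targets, and of dusp4, a phosphatase of MAP kinases, no transversion was listed, while 5 to 51 A>G or T>C sites were. A window with no transversion was the usual case, at 538 of the 765 listed windows.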

How the data were processed

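Parental genomic DNA and RNA of pooled offspring at 3 stages (16-cell, 3.5 hpf, 5.3 hpf) gave 1 library apiece. The authors aligned reads to GRCz10 with STAR 2.7.7a, used SAMtools 1.11 (versions from the submitters' processing notes) and called mismatches with REDiscover, with at least 10 reads of DNA and RNA at a site, and deposited for each site its position, change and frequency as a fraction of RNA reads between 0.2 and 1. Coverage was not analysed here, so the depth of a site is unknown, and intervals on shares cover counting error only. The mapping of each list to a stage rests on the stage in its name. Tables of the authors' comparisons of gene expression at other ages, with fold changes and p-values, were not used.

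A site was identified by chromosome, start and change. Shares were given with 95% Wilson intervals, differences with Newcombe intervals and medians with order-statistic intervals. Counts were compared with 2-sided Fisher's exact tests, adjusted over 47 tests, with scipy 1.17.1 and numpy 2.4.6 under Python 3.11.15; tables were handled by pandas 2.3.3 and plots drawn by matplotlib 3.10.9. Simulated data were used to check the functions for neighbours, pairs, chains, the proximity filter, windows, Fisher's test, the adjustment and the median interval. The Wilson and Newcombe intervals were not checked in this way. The 3′-UTR windows of 5000 bp and their gene names came from the authors' own list. The regions named were the 5 bins of 1 kb with the most transversions, the 5 windows with the most, the windows of 10 genes the study names, the chromosomes with the highest and lowest share, and the 3 sites listed at every stage with the largest difference between 5.3 hpf and 16-cell in each direction, with ties broken by chromosome and position. Members, lists and tests were chosen with earlier results of these data known.

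Alternatives were a minimum frequency of 0.3, the authors' proximity filter for other samples (at least 4 of 9 neighbouring sites with the same change, read as a window of 9 listed sites centred on the site), distances of 50 bp and 500 bp, thresholds of 0.8 and 0.95, leaving out chromosome 4, sites with no mismatch within 100 bp, windows of any stage, 1 site for each chain, and other sizes of change and bin.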

Additional observations from a re-analysis of the deposited data

How the results depend on the processing

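Of 134 values with a test under the alternatives, 115 kept their direction and side of the threshold and 5 changed direction. Under the proximity filter, which kept 34, 35 and 24 transversions at the 16-cell stage, 3.5 hpf and 5.3 hpf, the differences of the transversion share between 5.3 hpf and the 16-cell stage and between 5.3 hpf and 3.5 hpf turned to -0.0281 and -0.0374 points (exact test, adjusted p = 0.72 and 0.65). With so few transversions left, these differences could only be small, and their change of direction does not bear on the share in the whole lists. The other 3 passed the test in neither setting. They were C>A with G>T against A>C with T>G for frequencies of at least 0.9 at 5.3 hpf, at -0.17 points with a threshold of 0.8, the share of C>A with G>T among transversions at 3.5 hpf against the 16-cell stage, at -0.16 points with 1 site for each chain, and the share of transversions with a neighbour against the other 4 changes at 3.5 hpf, at -0.29 points without chromosome 4. With a minimum frequency of 0.3, the share among mismatches outside A>G and T>C differed by -2.33 points between 5.3 hpf and the 16-cell stage (exact test, adjusted p = 0.061), and the share listed at every stage by 2.84 points between transversions and the other 4 changes (now past the threshold, adjusted p = 0.0035), by -4.72 between C>A with G>T and A>C with T>G (adjusted p = 0.0058) and by 2.71 between C>G with G>C and A>C with T>G (adjusted p = 0.25). Within 500 bp the share of transversions with an A>G or T>C site differed from that of the other 4 changes by -3.08 points at the 16-cell stage (exact test, adjusted p = 0.037).

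For frequencies of at least 0.9, transversions against the other 4 changes gave 2.32 points with a threshold of 0.8 at 3.5 hpf (exact test, adjusted p = 0.079), 2.39 points with 1 site for each chain at 3.5 hpf (adjusted p = 0.10), and 3.28, 0.69 and 2.14 points without neighbours at the 16-cell stage, 3.5 hpf and 5.3 hpf (adjusted p = 0.11, 0.75 and 0.075). Without neighbours C>A with G>T exceeded A>C with T>G by 6.65 points at 3.5 hpf (exact test, adjusted p = 0.016), and C>G with G>C exceeded C>A with G>T by 4.51 points at 5.3 hpf (adjusted p = 0.23), or by 4.28 with 1 site for each chain (adjusted p = 0.077). With 1 site for each chain C>G with G>C and A>C with T>G differed in the share listed at every stage by 2.97 points (exact test, adjusted p = 0.082).

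Of 35 values without a test, 29 moved. Among these are the counts of sites that changed and of bins, whose own cutoff was altered, so that they had to move. With the 3 stages in their order, another transversion lay within 500 bp for 54.4%, 54.8% and 50.5%, and within 100 bp at a minimum frequency of 0.3 for 54.7%, 54.9% and 50.8%. Median frequencies were 0.551, 0.542 and 0.533 for sites listed at every stage and 0.260, 0.25 and 0.242 without neighbours. Median differences within transversion pairs were 0.0150, 0.0168 and 0.0178 at 1 bp, 0.0425, 0.0660 and 0.0612 at 11 to 100 bp, and 0.0341, 0.0397 and 0.0339 with both frequencies under 0.9. Transversions that moved by more than 0.1 numbered 357 of 1615 between 3.5 hpf and 16-cell, 336 of 1126 between 5.3 hpf and 16-cell and 376 of 1193 between 5.3 hpf and 3.5 hpf. By more than 0.3 they numbered 30, 66 and 55. The share over all shared sites is given for a change of 0.2 only, so these counts are not shown to be particular to transversions. Bins with at least 4 sites numbered 182 and with at least 8 sites 6. The chains, the removal of chromosome 4 for neighbours and the pair settings were chosen after the data were seen. The cause was not tested for any of these changes.

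No paired analysis was possible because each stage has 1 library, so that any 2 stages give a single pair. The spread between embryos is unknown, and the unknown coverage limits every frequency. A site with too few reads is not listed, so that its absence from a list does not show that the change was absent.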
